A study of Mus musculus with 7 samples.

Results

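The immunoglobulin variable (V) genes were examined in RNA from 7 subcutaneous (s/c) tumors of mouse pancreatic ductal adenocarcinoma (PDA). They were taken as every row of the deposited count table whose mouse symbol starts with Ighv (heavy chain), Igkv (kappa light chain) or Iglv (lambda light chain), which gave 51 of 22629 rows. These were 17 heavy, 32 kappa and 2 lambda genes, all annotated as V genes and none as pseudogenes. The GENCODE M21 annotation lists 218 V genes under these prefixes that are not pseudogenes, and those without a row were not analysed here. All tumors were formed in C57BL/6 hosts, which the methods give as purchased at 6 weeks of age, by the line 1242 of KPC PDA cells, and were harvested 2 weeks after inoculation. The cells of both groups carried Cas9 with the sgScramble control guide. The 3 sgScramble tumors are numbered 1, 4 and 5. The 4 icOVA tumors, numbered 15, 16, 18 and 2, were formed with sgScramble cells that also express icOVA, a cytoplasmic ovalbumin under doxycycline control. The methods describe such icOVA cells as a sorted line cloned from 1 cell. For s/c tumors of such cells, they give doxycycline food from the day of inoculation and a larger inoculum than the default for s/c tumors. The labels and the methods do not state whether the cells of these 3 sgScramble tumors were a clone, carried the icOVA vector or were given doxycycline in the host. Their inoculum is not stated for this series either, so the groups may differ in more than icOVA.

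A B cell builds its antigen receptor by joining 1 V gene to shorter D and J segments for the heavy chain, and 1 V gene to a J segment for a light chain. Only the joined gene is strongly transcribed with its constant gene, and the plasma cells that descend from a B cell keep its V genes while they secrete the same chains as antibody. In bulk RNA the V genes counted are therefore a sample of the receptors and antibodies made by the B cells and plasma cells of the tissue. C57BL/6 mice use kappa far more than lambda light chains. No row of the whole count table was annotated as an immunoglobulin D or J segment, and counts are per gene. The joins themselves, and which heavy chain belonged to which light chain, could therefore not be read.

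The sequences of the most counted V genes show how far apart the genes of the different icOVA tumors were. In the order of tumors 15, 16, 18 and 2, Ighv1-26, Ighv5-17, Ighv8-8 and Ighv14-3 were the most counted heavy genes, and Igkv4-62, Igkv1-117, Igkv17-127 and Igkv12-98 the most counted kappa genes. Iglv1 was the most counted lambda gene in all 4. The last 150 coding bases of each are printed from the M21 transcripts of the C57BL/6J reference, 5′ to 3′ on the coding strand, with the last in-frame cysteine codon in capitals. They are germline reference sequence and not sequence from the tumors.
Ighv1-26: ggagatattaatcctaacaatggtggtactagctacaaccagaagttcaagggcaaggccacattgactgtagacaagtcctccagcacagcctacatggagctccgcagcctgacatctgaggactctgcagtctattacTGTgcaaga
Ighv5-17: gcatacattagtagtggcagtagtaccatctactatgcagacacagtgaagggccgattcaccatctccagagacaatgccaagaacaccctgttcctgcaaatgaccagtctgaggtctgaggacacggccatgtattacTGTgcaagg
Ighv8-8: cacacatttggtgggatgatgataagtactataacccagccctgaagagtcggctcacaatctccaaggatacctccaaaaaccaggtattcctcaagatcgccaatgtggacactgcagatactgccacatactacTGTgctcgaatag
Ighv14-3: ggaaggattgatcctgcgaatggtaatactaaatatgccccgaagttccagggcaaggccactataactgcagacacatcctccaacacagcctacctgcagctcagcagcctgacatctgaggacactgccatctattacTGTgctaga
Igkv4-62: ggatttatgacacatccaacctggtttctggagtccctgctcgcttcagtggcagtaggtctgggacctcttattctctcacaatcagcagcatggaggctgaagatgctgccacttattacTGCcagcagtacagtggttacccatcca
Igkv1-117: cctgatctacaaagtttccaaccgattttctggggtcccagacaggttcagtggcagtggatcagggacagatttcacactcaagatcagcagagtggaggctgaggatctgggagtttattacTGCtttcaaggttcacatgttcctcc
Igkv17-127: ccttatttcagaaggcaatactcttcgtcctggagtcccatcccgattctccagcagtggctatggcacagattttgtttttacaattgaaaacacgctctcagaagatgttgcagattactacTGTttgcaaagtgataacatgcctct
Igkv12-98: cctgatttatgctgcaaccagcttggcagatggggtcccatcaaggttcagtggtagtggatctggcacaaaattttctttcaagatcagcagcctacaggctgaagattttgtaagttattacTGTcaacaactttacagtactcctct
Iglv1: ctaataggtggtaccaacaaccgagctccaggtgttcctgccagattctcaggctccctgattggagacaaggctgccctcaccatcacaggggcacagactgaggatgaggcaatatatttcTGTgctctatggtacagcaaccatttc
The 4 heavy stretches lie on the minus strand of chromosome 12 of GRCm38, at chr12:114788372-114788521, chr12:113859149-113859298, chr12:115294062-115294211 and chr12:114059845-114059994. On chromosome 6, the kappa stretches lie at chr6:69399812-69399961 on the minus strand and at chr6:68121678-68121827, chr6:67861510-67861659 and chr6:68571086-68571235 on the plus strand. The Iglv1 stretch lies at chr16:19085017-19085166 on the minus strand of chromosome 16. Over their coding sequences, the leading genes of a chain were 51.4% to 74.9% identical to each other, Ighv1-26 and Ighv14-3 being the closest pair. Relatives outside the leaders were closer, since Ighv1-26 and Ighv1-18, named for its sequence, were 96.9% identical and Igkv17-127 and Igkv17-121 were 97.5% identical. Of the 76-base windows of a member's coding sequence, a median of 88.0% over the 51 members matched no other annotated transcript, with 84.1% for Ighv1-26, 83.0% for Ighv8-8, 75.5% for Igkv17-127 and 100% for Ighv14-3 and Igkv12-98. For 26 members the most similar annotated V gene had no row in the table, so reads of such a gene that were counted on the member cannot be told apart from its own.

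Summed V gene counts were higher in every icOVA tumor than in any sgScramble tumor for each chain. For lambda the gap was narrow, with 6 counts in icOVA tumor 15 against 4 in sgScramble tumor 1. All V genes together had 38, 36 and 21 counts in sgScramble tumors 1, 4 and 5, against 332, 255, 485 and 1135 counts in icOVA tumors 15, 16, 18 and 2. This was 0.953 ± 0.244 CPM (counts scaled to the size of the library, SD, n = 3) against 16.4 ± 12.9 CPM (SD, n = 4), a ratio of means of 17.2, or 10.6 without icOVA tumor 2. These sums were over genes chosen with earlier results known and were not tested. Library totals ran from 30904855 to 37510591 counts, so the V genes were a small fraction of each library. In bulk RNA, fewer cells of a type and less RNA per cell cannot be told apart.

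**Figure D1:**
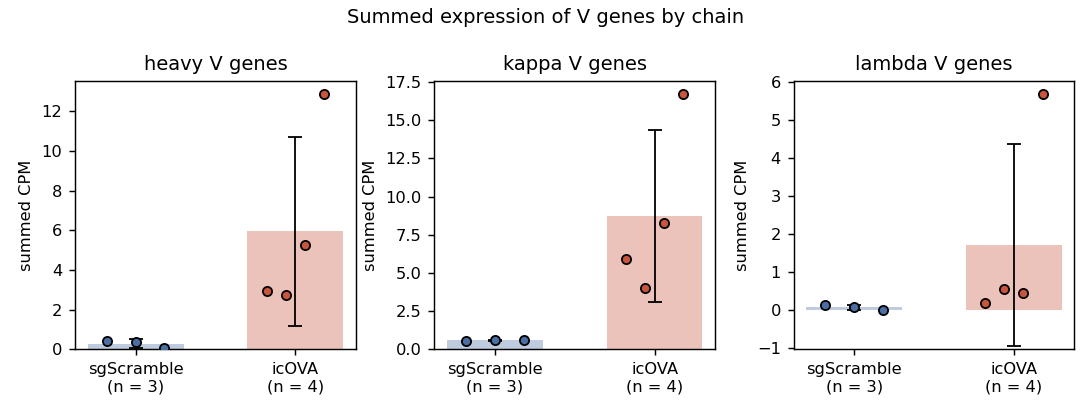
Summed CPM (y axis, linear) of the heavy, kappa and lambda V genes in the 3 sgScramble and 4 icOVA tumors. Points are tumors, bars are group means and error bars are SD. The groups do not overlap in any panel, narrowly so for lambda (0.162 against 0.115 CPM), and icOVA tumor 2 is the highest point in each.

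The heavy V genes had 15, 13 and 2 counts in sgScramble tumors 1, 4 and 5, against 108, 96, 182 and 414 in icOVA tumors 15, 16, 18 and 2. Their mean was 0.297 ± 0.203 CPM (SD, n = 3) against 5.94 ± 4.76 CPM (SD, n = 4), a log2 difference of 4.32, or 3.61 without icOVA tumor 2. The kappa V genes had 19, 21 and 19 counts against 218, 140, 288 and 538, with means of 0.597 ± 0.0463 and 8.73 ± 5.61 CPM, a 14.6-fold difference. Both chains were lowest in tumor 16 and highest in tumor 2 among the icOVA tumors. The lambda V genes had 4, 2 and 0 counts against 6, 19, 15 and 183, with means of 0.0586 ± 0.0576 and 1.71 ± 2.66 CPM. Tumor 2 held most of the lambda counts, and without it the log2 difference of the lambda means was 2.69 in place of 4.86; without sgScramble tumor 1 it was 5.81. Without the most counted V gene of each tumor, the icOVA tumors were still 14.8-fold higher for heavy and 11.0-fold higher for kappa V genes, again with no overlap.

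Gene by gene, the counts were too low for most members to be tested. The low-count filter of edgeR (filterByExpr) kept 2 of the 51, Igkv1-117 and Iglv1, and none of the heavy genes. Igkv1-117 had 4, 5 and 0 counts in sgScramble tumors 1, 4 and 5, against 2, 51, 25 and 51 counts in icOVA tumors 15, 16, 18 and 2, so the groups overlapped through tumor 15. Its log2 fold change was 3.34 (SE 1.12, unadjusted p = 0.0184, adjusted p = 0.110, by the quasi-likelihood test of edgeR, adjusted over all genes tested). Iglv1 had 4, 2 and 0 counts against 4, 16, 15 and 178, overlapping through tumor 15 again, with a log2 difference by edgeR of 4.67 (SE 1.65, unadjusted p = 0.0231, adjusted p = 0.123). Thus edgeR called 0 members higher and 0 lower, where it called 3.36% of the 17489 genes tested higher and 2.54% lower in icOVA tumors. Limma-voom also called 0, with 0 at an unadjusted p under 0.05. DESeq2 called both members higher (adjusted p = 0.0255 for Igkv1-117 and 0.00629 for Iglv1), in a fit that called 8.91% of all genes higher. In libraries of this size, simulated with the spread that edgeR estimated, DESeq2 made 53 false calls where edgeR made 13. DESeq2 also recovered more true changes there, 62 and 89 of 100 genes changed by 1 and 2 on the log2 scale. For edgeR these were 47 and 82. The changed genes were drawn at random from all 17489, with smaller changes than those estimated for Igkv1-117 and Iglv1. The simulation therefore cannot decide whether the DESeq2 calls of these 2 low-count genes were false. P values here measure the spread between these samples, since the labels do not say that the tumors came from separate mice.

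With no filter, all 51 members entered the edgeR fit, and 0 passed the adjusted threshold. At an unadjusted p under 0.05, 17 were higher and 0 lower, where 11.6% of all 22626 genes tested were higher. The fold changes were positive for 47 members, with a median log2 of 4.0 against 0.0035 over all genes. For the 21 members without a count in any sgScramble tumor the sign could only be positive. For the 2 without icOVA counts it could only be negative, so these numbers are a description. Each icOVA tumor exceeded each sgScramble tumor in CPM for 7 members, namely Ighv14-3, Ighv1-64, Igkv12-46, Igkv5-39, Igkv6-23, Igkv4-74 and Igkv6-25, where this held for 9.59% of all genes with a count. The separations rested on few counts. Ighv14-3, Igkv6-23, Igkv4-74 and Igkv6-25 had 1 count in their lowest icOVA tumor against 0 in each sgScramble tumor. Igkv12-46 and Igkv5-39 had 2 counts in their lowest icOVA tumor against at most 1 in a sgScramble tumor. Igkv5-39, Igkv6-23, Igkv4-74 and Igkv6-25, with Igkv6-15 and Igkv13-84 in the following sentences, were named after their values were seen. Of the 51 members, 21 had counts in all 4 icOVA tumors, 21 had no count in any sgScramble tumor, and Ighv1-53 and Igkv6-15 alone had counts in all 7 tumors. Ighv1-42, with 3 counts in sgScramble tumor 1, and Igkv13-84, with 1 count in sgScramble tumor 5, had none in icOVA tumors.

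**Figure D2:**
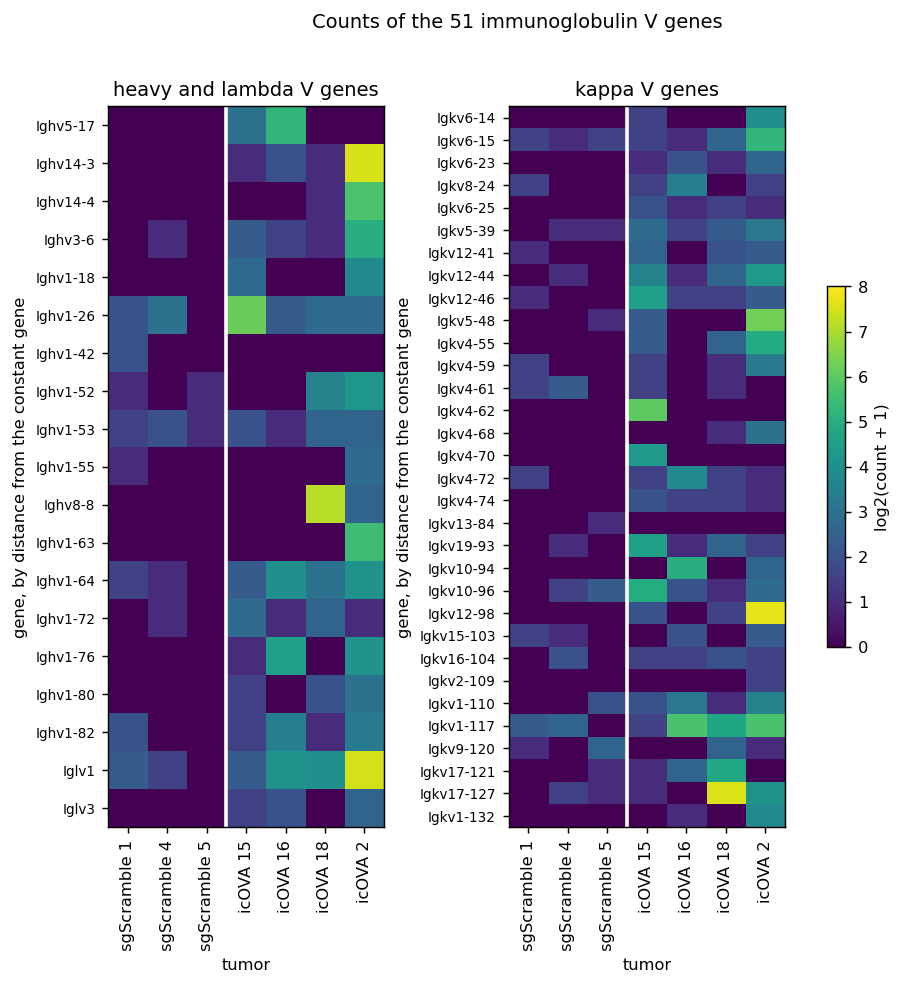
Counts of the 51 V genes (rows, ordered within a chain by distance from the constant gene) in the 7 tumors (columns), coloured by log2(count + 1). The brightest cells of the icOVA tumors, right of the white line, fall on different rows in different tumors, and no cell of a sgScramble tumor exceeds 7 counts.

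Different genes led in different tumors. Of the 27 members with at least 20 icOVA counts, 16 had over 75% of those counts in 1 tumor. The heavy and kappa leaders of each icOVA tumor accounted for 28.9% or more of the counts of their chain there, and most of them were near 0 in the other 3.

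In icOVA tumor 15 the leading heavy gene was Ighv1-26, with 72 of 108 heavy counts (66.7%, 95% Wilson interval 57.3 to 74.8%, counting error only, as for all intervals here). Ighv1-26 had 4, 6 and 6 counts in icOVA tumors 16, 18 and 2, and 3, 7 and 0 in the sgScramble tumors. It was thus at 0 to 7 counts in 6 tumors and high in 1. The leading kappa gene of tumor 15, Igkv4-62, had 63 of 218 kappa counts (28.9%, 23.3 to 35.2%) and no count in any other tumor. Next to it stood Igkv10-96 with 30 counts, Igkv19-93 with 23, Igkv12-46 with 22 and Igkv4-70 with 19, the last with no count elsewhere and named after its values were seen. Members of the Igkv4 family made up 43.6% of the kappa counts of tumor 15, against 4.17% to 10.7% in the other icOVA tumors, and 31.6%, 19.0% and 0% of 19, 21 and 19 counts in the sgScramble tumors.

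In icOVA tumor 16 the leading heavy gene was Ighv5-17, with 37 of 96 counts (38.5%, 29.4 to 48.5%), followed by Ighv1-76 with 23 counts, Ighv1-64 with 15 and Ighv1-82 with 10. Ighv5-17 had 7 counts in tumor 15 and 0 in the other 5 tumors. The leading kappa gene was Igkv1-117, with 51 of 140 counts (36.4%, 28.9 to 44.7%), and Igkv10-94 had 31. Unlike the other kappa leaders, Igkv1-117 was well counted in 3 icOVA tumors, with 51 counts in tumor 2 as well, and it was also the most counted kappa gene of sgScramble tumors 1 and 4.

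The V genes of icOVA tumor 18 were the most concentrated in both chains. Ighv8-8 had 141 of the 182 heavy counts (77.5%, 70.9 to 82.9%), 5 counts in tumor 2 and none elsewhere. Igkv17-127 had 186 of the 288 kappa counts (64.6%, 58.9 to 69.9%), against 1, 0 and 16 counts in the other icOVA tumors and 0, 2 and 1 in the sgScramble tumors. These 2 genes thus took most of the counts of both chains in tumor 18. Igkv17-121, named after its values were seen, added 26 counts there, and since it is the close relative of Igkv17-127, reads shared by the 2 genes could have been counted on either.

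Among the icOVA tumors, tumor 2 had the most counts and the most members counted, 44 of the 51. At the equal depth of 96 heavy counts, 13.0 heavy genes were expected in tumor 2 against 8.95 to 10.8 in the others, and at 140 kappa counts 20 kappa genes against 22.7 in tumor 15, 18 in tumor 16 and 17.1 in tumor 18, so its kappa set was not the widest. Ighv14-3 led its heavy genes with 183 of 414 counts (44.2%, 39.5 to 49.0%), against 1, 3 and 1 counts in the other icOVA tumors and 0 in each sgScramble tumor. Ighv14-4 had 52 counts there and 1 elsewhere, and Ighv1-63 had 45 there and 0 elsewhere. The Ighv14 family, of which these data hold 2 genes, thus took 56.8% of the heavy counts of tumor 2 and 0.926% to 3.13% in the other icOVA tumors. Among kappa genes Igkv12-98 had 206 of 538 counts (38.3%, 34.3 to 42.5%), against 3, 0 and 2 in the other icOVA tumors, and Igkv5-48 followed with 77. Iglv1, the lambda gene, had 178 counts in tumor 2, beside the 183 of Ighv14-3 and the 206 of Igkv12-98.

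**Figure D3:**
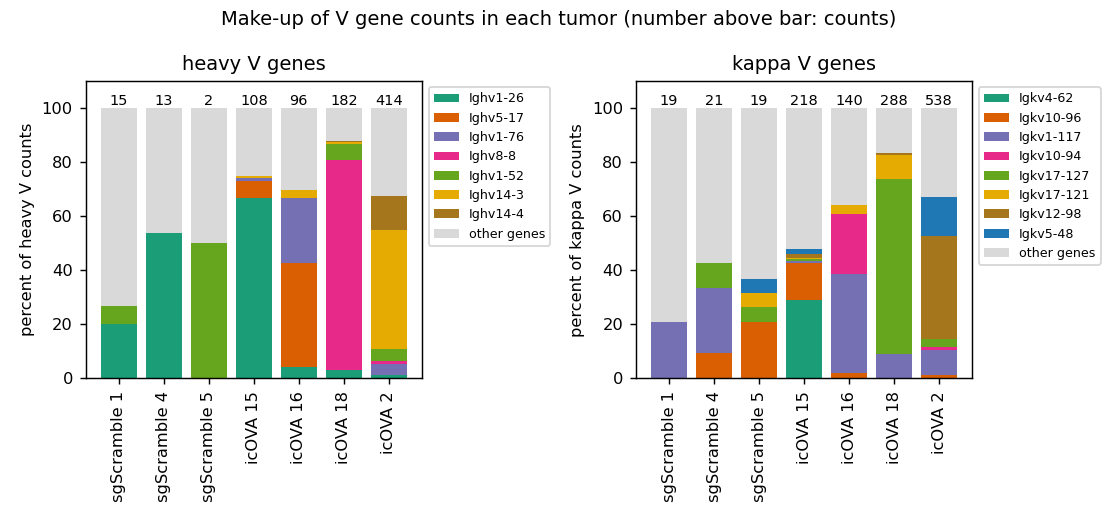
Share of each tumor's heavy (left) and kappa (right) V counts, in percent, taken by the 2 most counted genes of each icOVA tumor, with all other genes in gray and the number of counts above each bar. The widest colored block differs between the icOVA tumors, from 38.5% to 77.5% of heavy and from 28.9% to 64.6% of kappa counts.

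In the sgScramble tumors the counts were too few to rank the genes. Ighv1-26 was the most counted heavy gene in tumor 4 with 7 of 13 counts (53.8%, 29.1 to 76.8%), tied in tumor 1 with Ighv1-42 and Ighv1-82 at 3 of 15 counts, and tumor 5 had 1 count each of Ighv1-53 and Ighv1-52. Igkv1-117 led the kappa genes in tumors 1 and 4 with 4 of 19 and 5 of 21 counts, and Igkv9-120 led in tumor 5 with 5 of 19. Ighv1 genes, 12 of the 17 heavy members, had 15 of 15, 12 of 13 and 2 of 2 heavy counts in the sgScramble tumors, and their share in icOVA tumors was 88.9%, 56.3%, 20.9% and 34.3%.

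The share of lambda in the light chain V counts also varied. It was 17.4%, 8.70% and 0% in the sgScramble tumors, from 23, 23 and 19 light chain counts, and 2.68%, 11.9%, 4.95% and 25.4% in icOVA tumors 15, 16, 18 and 2. The groups overlapped. Tumor 2, at 25.4% (22.3 to 28.7%), was above the intervals of the other 3 icOVA tumors, of which the highest reached 17.9%. The lambda share of the light chain constant counts was 15.2%, 11.2% and 21.3% in the sgScramble tumors and 9.21%, 4.85%, 7.06% and 12.7% in icOVA tumors 15, 16, 18 and 2, so by constant counts tumor 2 was the highest icOVA tumor and below sgScramble tumors 1 and 5.

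The leading genes were spread along the loci. All 17 heavy members are on the strand of Ighm, from 436 kb (Ighv5-17) to 2530 kb (Ighv1-82) away from it, and the icOVA leaders Ighv5-17, Ighv14-3, Ighv1-26 and Ighv8-8 lie 436, 637, 1366 and 1871 kb away. Of the 32 kappa members, 12 are on the strand of Igkc, where joining deletes the DNA between, and 20 on the other strand, where joining inverts it. Genes on the strand of Igkc had 6.88%, 50.7%, 86.8% and 57.1% of the kappa counts in icOVA tumors 15, 16, 18 and 2, and 36.8%, 52.4% and 57.9% in the sgScramble tumors. The groups overlapped, and tumors 15 and 18 stood at opposite ends.

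To describe how concentrated the counts were, the Simpson index was computed, the probability that 2 counts drawn from a chain fall on the same gene, which does not depend on depth in expectation. For heavy V genes it was 0.454, 0.237, 0.606 and 0.234 in icOVA tumors 15, 16, 18 and 2, and for kappa V genes 0.133, 0.197, 0.433 and 0.187. In the sgScramble tumors it was 0.105 and 0.308 for the heavy genes of tumors 1 and 4, and 0.0702, 0.1 and 0.117 for the kappa genes, each from 21 or fewer counts. The kappa index was higher in each icOVA tumor than in any sgScramble tumor, and the heavy index overlapped. The T cell receptor V genes, the closest counterpart in another lymphocyte, gave 0.0433 to 0.0908 for Trav and 0.0687 to 0.136 for Trbv over the 7 tumors. The heavy and kappa indices of each icOVA tumor were above its own Trav and Trbv indices. The most counted Trav or Trbv gene took 10.3% to 23.9% of its chain in any tumor, less than every heavy and kappa leader of the icOVA tumors. These differences were not tested, the chains have different numbers of rows, and 8 of the 59 Trav rows repeated the counts of another row. The immunoglobulin rows cover 17 of 115 heavy and 32 of 100 kappa genes annotated and not pseudogenes. Shares and indices therefore hold for the genes with a row only. T cell receptor V genes summed to 23.5 ± 5.28 CPM (SD, n = 4) in icOVA and 10.0 ± 3.98 CPM (SD, n = 3) in sgScramble tumors, 2.34-fold higher, against 17.2-fold for the immunoglobulin V genes.

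**Figure D4:**
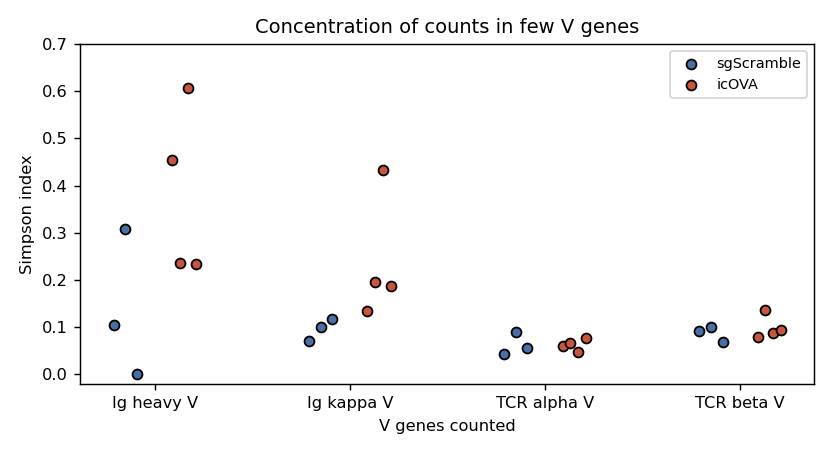
Simpson index (y axis) of the immunoglobulin heavy and kappa and of the T cell receptor alpha (Trav) and beta (Trbv) V counts, 1 point per tumor. The icOVA points of the heavy and kappa genes run from 0.133 to 0.606, and no T cell receptor point exceeds 0.136; the sgScramble immunoglobulin points rest on 21 or fewer counts, and the heavy point at 0 on 2 counts.

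The constant genes, which are shared by all receptors of a class and were counted more deeply, gave the tested counterpart of the V gene sums. Of 11 constant genes tested, edgeR called 5 higher and 0 lower in icOVA tumors, Ighm (IgM), Ighg1, Ighg2c and Ighg3 (IgG classes) and Igkc (kappa). These calls depended on the method. Of the 5, limma-voom called Ighg1 alone (adjusted p = 0.0270), with the other adjusted p values from 0.0677 (Ighg3) to 0.0755 (Ighm). DESeq2 called all 5 higher, with adjusted p values of 0.000323 or less. Igkc had 117, 87 and 63 counts in sgScramble tumors 1, 4 and 5, against 769, 628, 1053 and 3083 in icOVA tumors 15, 16, 18 and 2, with no overlap, and its log2 fold change was 3.94 (edgeR, SE 0.69, adjusted p = 0.0284). Ighg1 had 1, 9 and 6 counts against 455, 732, 1260 and 727, with no overlap, and its log2 fold change was 7.12 (edgeR, SE 0.61, adjusted p = 0.0143). It was thus at 9 counts or fewer in the sgScramble tumors. Ighm had 392, 391 and 363 counts against 1536, 551, 1336 and 1216, with a log2 fold change by edgeR of 1.53 (SE 0.31, adjusted p = 0.0368), and Igha (IgA) had 126, 110 and 44 against 160, 125, 48 and 81, with an adjusted p of 0.927. Ighg2b had 8, 24 and 9 counts against 50, 47, 67 and 2772, and its log2 fold change of 5.76 did not pass the test (SE 2.03, adjusted p = 0.121, edgeR). Its count in tumor 2 was the highest of any IgG gene in any tumor, and tumor 2 was also the tumor with the most V counts. The number of calls over all genes depended on single tumors. In place of 588 higher and 444 lower, edgeR called 0 in either direction without sgScramble tumor 1, without sgScramble tumor 5 or without icOVA tumor 15, and 6 higher and 2 lower without icOVA tumor 2. It called 862 higher and 681 lower without sgScramble tumor 4, 1014 and 716 without icOVA tumor 16, and 615 and 492 without icOVA tumor 18.

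V counts followed the constant counts of the kappa chain. There were 16.2, 24.1 and 30.2 kappa V counts per 100 Igkc counts in the sgScramble tumors and 28.3, 22.3, 27.4 and 17.5 in the icOVA tumors, with means of 23.5 ± 6.98 (SD, n = 3) and 23.9 ± 5.03 (SD, n = 4). The groups overlapped. For the heavy chain there were 2.77, 2.34 and 0.443 V counts per 100 constant counts in the sgScramble tumors and 4.68, 6.01, 6.30 and 7.86 in the icOVA tumors, 3.36-fold higher in the mean and without overlap. The make-up of the heavy constant counts differed at the same time, since IgG genes were 2.58%, 6.65% and 5.10% of them in the sgScramble tumors and 25.5%, 57.1%, 51.0% and 74.8% in the icOVA tumors. Per 100 IgG counts, a ratio chosen after seeing the data, heavy V counts were 107, 35.1 and 8.70 in the sgScramble and 18.4, 10.5, 12.3 and 10.5 in the icOVA tumors. The mean ratio was thus lower in icOVA tumors with this denominator, but the groups overlapped. The sgScramble ratios rest on 14, 37 and 23 IgG counts, and that of tumor 5 was below each icOVA tumor. Per 100 Ighm counts, also chosen after seeing the data, the mean was 7.02-fold higher in icOVA tumors, without overlap.

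**Figure D5:**
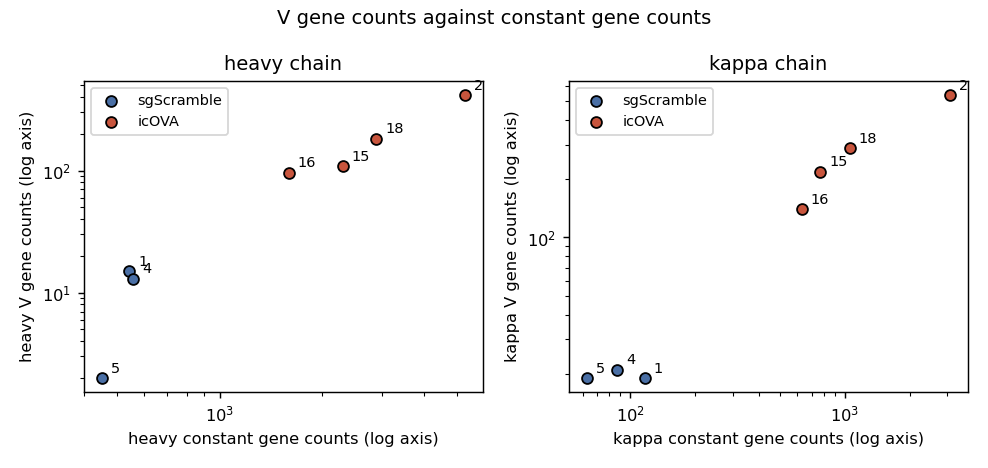
V counts against constant gene counts of the heavy (left) and kappa (right) chain, both axes on a log scale, 1 point per tumor with its number. Kappa points of both groups lie at 16.2 to 30.2 V counts per 100 constant counts, and the heavy points of the sgScramble tumors lie at 0.443 to 2.77 against 4.68 to 7.86 in icOVA tumors.

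Other genes of the antibody pathway differed in part. Of 9 secretion genes tested, Jchain (which links IgM and IgA chains), Mzb1 (a chaperone of antibody assembly) and Irf4 (a regulator of plasma cells and activated T cells) rose. Xbp1 (a regulator of secretion in many cells) fell by 0.40 on the log2 scale (SE 0.09, adjusted p = 0.0487, edgeR). The fall of Xbp1 passed by DESeq2 (adjusted p = 0.00302), but not by limma-voom (0.0542) or by edgeR with RLE scaling (0.0503). Mzb1 had 0 counts in each sgScramble tumor and 24, 17, 27 and 49 in icOVA tumors (adjusted p = 0.0271, edgeR), and Jchain had 26, 17 and 12 against 88, 77, 143 and 242 (log2 fold change 2.87, SE 0.53, adjusted p = 0.0309, edgeR). The icOVA tumors were above the sgScramble tumors in both genes without overlap, and tumor 2 was again the highest. Of 10 receptor signaling genes tested, Syk alone rose (log2 fold change 1.03, SE 0.13, adjusted p = 0.0230, edgeR), and of 6 genes of V gene recombination and mutation, Dntt (the enzyme that adds bases at the joins) alone rose, with 10, 7 and 4 counts against 20, 25, 33 and 35 (adjusted p = 0.0360, edgeR). The list of constant genes above lacked a row for Ighe.

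Markers of the cell types that could hold these transcripts were counted beside them. Of 10 B cell markers, 7 were tested and 0 passed the adjusted threshold of edgeR, and their summed level was 13.8 to 19.1 CPM in icOVA and 7.74 to 11.0 CPM in sgScramble tumors. Of 7 plasma cell markers with a row, edgeR called 3 higher and 1 lower, the same 4 genes as above. The list's summed level of 489 to 660 CPM in icOVA and 681 to 793 CPM in sgScramble tumors was mostly that of Sdc1, which epithelial cells also express, and Xbp1. Of 8 T cell markers 6 rose, with a summed level of 215 to 339 against 97.4 to 157 CPM. Of 5 lymph node markers tested 0 passed, with a median log2 fold change of 1.58 and a summed level of 9.08 to 31.8 against 4.38 to 14.3 CPM, overlapping. Among them Ccl21a had 12, 375 and 11 counts in the sgScramble and 52, 133, 764 and 20 in the icOVA tumors, Ccl19 had 11, 9 and 27 against 48, 31, 65 and 63, and Chst4 had 112, 36 and 90 against 411, 117, 155 and 318. Tumor 2, which had the most V counts, was thus low in Ccl21a and high in Ccl19 and Chst4. The 5 cancer cell markers had 0 calls, at 2694 to 4626 against 4151 to 4379 CPM, with tumor 18 the lowest. The part of these differences in the V gene values was not tested. OVA, which checks the labels, had 85 to 151 counts in sgScramble and 3413 to 10750 in icOVA tumors, and tumor 18, with the fewest, was not the tumor with the fewest V counts.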

How the data were processed

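The RNA of 7 s/c tumors was sequenced, 3 sgScramble and 4 icOVA. The authors deposited unnormalized read counts, whole numbers for 22629 rows, and every column was used. The libraries are described as TruSeq libraries (polyA RNA in the labels, total RNA in the methods) read for 76 bases. The submitters' processing notes name mm10; the aligner, the counter, its treatment of reads that match several genes, the strand setting and the annotation are not given in the sources used here. Symbols (22414 rows matched), coordinates and sequences are those of GENCODE M21 on GRCm38.

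The members, the gene lists and the tests were chosen with earlier results of these data known. Counts were filtered with filterByExpr (minimum count 10, minimum total 15), scaled by TMM and compared with the quasi-likelihood test of edgeR 4.0.16 in R 4.3.3, with Benjamini-Hochberg adjustment over all genes and a threshold of 0.05. On simulated counts for the 17489 genes of this comparison, it recovered 47 of 100 genes changed by 1 on the log2 scale and 82 of 100 changed by 2, with 13 false calls. DESeq2 1.42.0, limma-voom 3.58.1, other scalings and filters, and leaving out each tumor were alternatives. Shares are counts of a gene over the V counts of its chain in a tumor, with 95% Wilson intervals. Coding sequences were compared by global alignment (Biopython 1.88), as matches over the longer length. V genes were named if they passed the test, led their chain in a tumor, or had at least 10% of a chain with at least 50 counts, 23 in all, and constant genes and Jchain by identity; others are described by the lists, or were named for their sequence or after their values were seen, as stated there. Some single genes of the lists are not reported here.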

Additional observations from a re-analysis of the deposited data

Results flagged for a closer look

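In 5 of 38 values examined over the 4 icOVA tumors, 1 tumor lay so far from the other 3 that its gap to the nearest, divided by the range, passed Dixon's 95% critical value for 4 samples. Chance flags about 1 in 20 groups, but all 5 were log2 CPM values (prior count 2) of single genes among the 23 named V genes, most of which were named because they led or were well counted in 1 tumor, so that rate does not apply to them and the values are a description. A gene counted in 1 tumor alone has a ratio of 1 by construction. Tumor 2 stood above the others for Ighv14-3 (ratio 0.876, 2.52 against -3.54 to -2.79), Ighv14-4 (0.881, 0.74 against -4.09 to -3.51) and Ighv1-63 (1, 0.54 against -4.09, the value at 0 counts). Tumor 15 stood above the others for Ighv1-26 (0.858, 1.0 against -2.53 to -2.03) and Igkv4-62 (1, 0.82 against -4.09). The sums by chain, the Simpson indices, the shares of the leading genes and the V counts per constant count did not pass the critical value.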

How the results depend on the processing

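No paired analysis was possible because no tumor number occurs in both groups. The count of members called higher was 0 with edgeR and 2 with DESeq2; it was 0 under limma-voom, the other scalings and filters and without each tumor, although 0 members entered the fit at 10 counts in every tumor or without icOVA tumor 16, 18 or 2. Counts of lower members were 0 throughout. With 1 tumor left out, the log2 fold change ran from 2.81 to 3.92 for Igkv1-117 and from 4.15 to 5.55 for Iglv1, with adjusted p values of 0.0847 or more in the 4 fits that held them. The log2 differences of summed CPM moved by less than the spread between icOVA tumors under every alternative. For lambda without icOVA tumor 2 this held only barely, from 4.86 to 2.69 against a spread of 2.18 that includes tumor 2. With 1 tumor left out, the differences ran from 3.61 to 4.70 for heavy, 3.34 to 4.11 for kappa and 2.69 to 5.81 for lambda V genes. Lambda had no value without its most counted gene, since no sgScramble count was left. Among the genes kept by the filter there was 1 kappa and 1 lambda gene, so each leading share became 100% and each Simpson index 1 by construction, and no heavy value could be had; no member was a pseudogene, so that alternative changed nothing. Dividing counts by transcript length, chosen after seeing the data, left the leading gene the same in all 12 shares and moved none by more than 2.63 percentage points. The icOVA to sgScramble ratio of heavy V counts per constant count was 3.36 over all heavy constant genes and 7.02 over Ighm alone. It was 0.257 over IgG alone, where the groups overlapped. At these depths, 0 counts of a gene in a chain with 19 counts has a Wilson upper limit of 16.8%, so shares in sgScramble tumors are poorly known.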
